A study of Mus musculus with 12 samples.

Results

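Regulators of G protein signalling, the Rgs genes, were followed in mouse auditory cortex slices exposed for 1 h to a pharmacological cocktail. The 10 genes described here are Rgs1, Rgs2, Rgs3, Rgs4, Rgs7, Rgs10, Rgs12, Rgs14, Rgs16 and Rgs17, taken by their symbols from the 20989 loci of each expression file. With the 11 other genes named Rgs they make up 21 Rgs genes. Acute coronal slices were cut from C57bl6/J mice at 4 weeks of age, and the auditory cortex was dissected from both sides after the slices had been divided at the midline. For each of 6 mice, 1 hemisphere lay for 1 h in control aCSF (artificial cerebrospinal fluid). The other hemisphere lay for 1 h in the same fluid with 50 µM bicuculline, 100 µM norepinephrine, 50 µM carbamoylcholine, 100 µM dopamine, 40 µM ascorbic acid and 100 µM serotonin. By the study's methods for slice incubation, both hemispheres then rested in aCSF for a further 1 h before dissection, although the treatment protocol in the labels is silent on this rest. This gave 6 control and 6 cocktail libraries of poly-adenylated RNA, numbered here by mouse. All tissue was sliced and incubated, so the control is not untouched cortex, and each library holds every cell type of the dissected piece.

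Heterotrimeric G proteins carry the signals of receptors for neuromodulators and many other ligands. Their alpha subunit is active while it holds GTP, and an RGS protein binds the active alpha subunit and speeds the hydrolysis of that GTP, which ends the signal sooner. Norepinephrine, dopamine and serotonin, and carbamoylcholine through muscarinic receptors, act on receptors of this kind, whereas bicuculline blocks the GABA-A receptor, which is a channel. The genes fall into subfamilies by the similarity of their RGS domains. Rgs1, Rgs2, Rgs3, Rgs4 and Rgs16 belong to R4, Rgs7 to R7, Rgs10, Rgs12 and Rgs14 to R12, and Rgs17 to RZ. Whether the transcripts of these regulators differed between the hemispheres is the question the comparison addresses here.

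Of the 10 genes, 2 were called higher in the cocktail (limma adjusted p under 0.05), as were 1.22% of the 12032 loci tested in the same fit. Rgs2, which acts mainly on the Gq class of alpha subunits, was 1.59 times its control level, from 31.3 ± 2.43 to 49.8 ± 5.84 FPKM (mean ± SD, n = 6 each). Rgs4, which acts on the Gi and Gq classes and is abundant in cortical neurons, was 1.24 times its control level, from 239 ± 22.9 to 296 ± 23.0 FPKM (n = 6 each). The call of Rgs4 lay at the threshold, and 11 of 15 other ways of fitting the same data did not make it. Of the other 8, 7 were tested and not called, and Rgs1 was too low to be tested. FPKM is the number of fragments per kilobase of transcript, scaled for the depth of the library, so levels of different genes can be compared in it. In bulk tissue, more RNA per cell and more cells of a type cannot be told apart.

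The upstream sequences of both called genes are shown beside that of Rgs16, a member of the same subfamily that was not called. Rgs16 was still higher in the cocktail hemisphere of all 6 mice, so it does not stand for a gene without a rise. The sequences of so few genes cannot show whether a motif goes with a call. Each is the 250 bases before the RefSeq start on GRCm38.p6, the same build as mm10, read 5′ to 3′ on the strand of the gene, and capitals mark matches to the motifs named in the next paragraph.
Rgs2, chr1:144004150-144004399, minus strand: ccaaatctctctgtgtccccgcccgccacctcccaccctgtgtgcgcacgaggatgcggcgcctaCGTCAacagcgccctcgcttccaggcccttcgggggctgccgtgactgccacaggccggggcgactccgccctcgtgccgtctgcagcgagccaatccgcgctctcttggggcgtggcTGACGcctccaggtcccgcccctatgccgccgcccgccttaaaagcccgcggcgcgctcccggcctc
Rgs4, chr1:169747643-169747892, minus strand: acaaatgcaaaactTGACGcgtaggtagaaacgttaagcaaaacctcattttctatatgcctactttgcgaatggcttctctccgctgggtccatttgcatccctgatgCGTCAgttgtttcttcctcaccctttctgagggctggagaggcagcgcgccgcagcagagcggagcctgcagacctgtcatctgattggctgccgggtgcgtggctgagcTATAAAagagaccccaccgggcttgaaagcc
Rgs16, chr1:153740103-153740352, plus strand: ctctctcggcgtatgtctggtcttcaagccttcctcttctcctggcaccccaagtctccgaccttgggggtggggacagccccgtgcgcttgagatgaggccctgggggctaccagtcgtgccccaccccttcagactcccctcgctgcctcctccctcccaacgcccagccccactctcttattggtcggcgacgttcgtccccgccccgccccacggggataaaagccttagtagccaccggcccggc

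The motifs were the cyclic AMP response element (CRE, TGACGTCA), its half-site (TGACG, which also lies within the full element), the AP-1 site (TGANTCA, with N for any base), the Egr site (GCGTGGGCG), the TATA box (TATAAA) and the CArG box, searched on both strands. The half-site occurred at 2 places upstream of Rgs2, beginning 185 and 67 bases before the start, and at 2 places upstream of Rgs4, beginning 236 and 141 bases before it. Among all 32851 promoters of the RefSeq table, 17.8% held at least 1 half-site and 3.90% held 2 or more. Rgs4 also had a TATA box beginning 31 bases before its start, a motif held by 12.4% of all promoters. No full CRE (1.55% of all promoters), AP-1 site (6.75%), Egr site (0.536%) or CArG box (1.47%) was matched in the windows of Rgs2 and Rgs4, and none of the motifs was matched in that of Rgs16. The Rgs2 window had a GC content of 72.4%, that of Rgs16 66.4% and that of Rgs4 53.6%, against a median of 52.4% over all promoters. Of the 10 genes, 8 matched an entry in the table, with 10 promoters in all. Across these, Rgs12 held the half-site in 1 of its windows, AP-1 matches were found for Rgs12 and Rgs17, and Rgs3, which was not called, held a TATA box in each of its 2 windows, beginning 100 and 177 bases before the start. The letters are a description of the windows and no measure of binding.

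The shallowest library, control mouse 6, held 10601067 reads and the deepest, control mouse 1, held 19768881, as recovered from the deposited confidence intervals. Control mouse 1 stood apart from the other control libraries. Its log2(FPKM + 1) values lay at a median of 0.142 below their mean, whereas no other library was further than 0.0695 from the rest of its group. It also set the low end of several control ranges given here, among them those of Rgs2, Rgs4, Rgs7, Rgs10 and Rgs17, of the share of Rgs4 among the Rgs genes, and of the thalamus, striatum and CA2 marker sums. Immediate-early genes, which active neurons switch on within minutes, were higher in the cocktail hemisphere of all 6 mice for the 4 genes checked, among them Fos with a log2 difference of 0.99 ± 0.08 (SE, limma adjusted p = 2.92e-05) and Arc with 0.82 ± 0.06 (limma adjusted p = 2.18e-05). The excitatory neuron markers summed to between 1322 and 1460 FPKM in control and between 1253 and 1432 FPKM in cocktail libraries. Markers of neighbouring regions had lower sums over the 12 libraries, 15.2 to 19.5 FPKM for thalamus, 53.4 to 82.1 FPKM for striatum and 197 to 275 FPKM for hippocampal CA2. These are sums of different genes, so they do not measure how much neighbouring tissue was dissected. None of the 53 loci tested in 10 marker lists was called by limma or by voom, and 1, the blood gene Hbb-b1, had an unadjusted p under 0.05. Its log2 difference was 0.45 (limma adjusted p = 0.0935), and it was called higher without mouse 2 and with sample weights.

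The levels in control cortex spread widely. Rgs4 was by far the most abundant of the 10, at 194 to 254 FPKM in the 6 control libraries, and alone made up 50.3% to 54.1% of the summed FPKM of the 21 Rgs genes there. Rgs2 at a mean of 31.3 FPKM and Rgs7, a brain-enriched partner of the G protein beta subunit Gnb5, at 27.3 FPKM followed. Their ranges overlapped, although Rgs2 was above Rgs7 in all 6 control libraries. Next came Rgs14 at 16.4, Rgs17 at 12.8, Rgs10 at 12.7 and Rgs12 at 11.4 FPKM, each overlapping its neighbour in this order, and Rgs17 was above Rgs10 in only 3 of the 6 libraries. Rgs16 at 6.11 and Rgs3 at 4.83 FPKM overlapped in range, with Rgs16 higher in every control library. Rgs1, a regulator best known from immune cells, was lowest at 0.51 FPKM. Gaps without overlap lay between Rgs4 and Rgs2, between Rgs7 and Rgs14, between Rgs12 and Rgs16, and between Rgs3 and Rgs1.

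**Figure D1:**
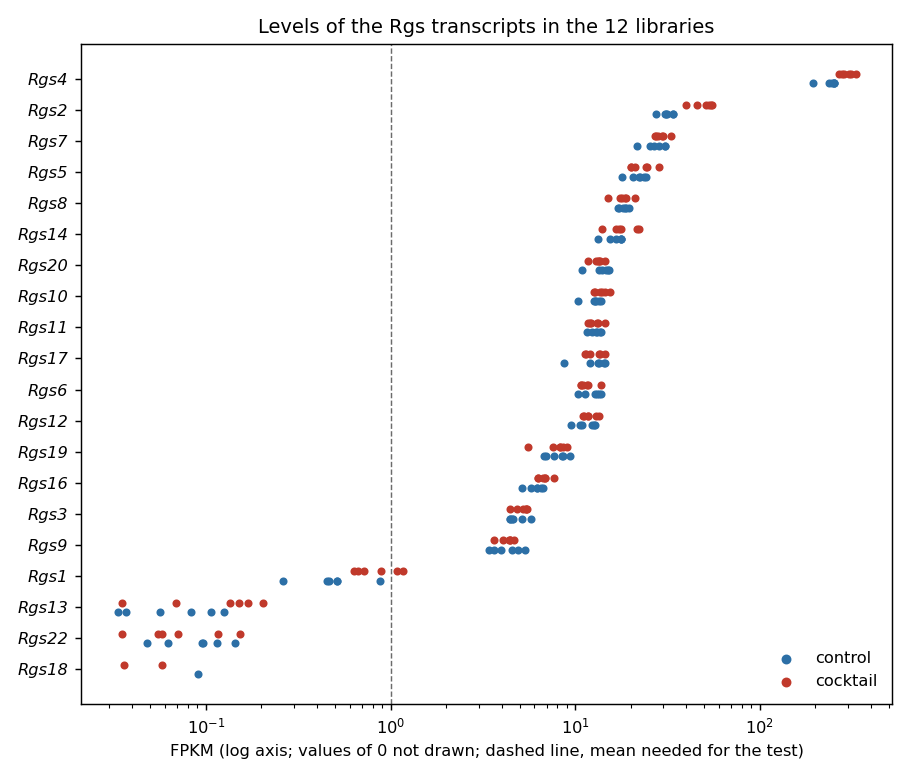
FPKM on a log axis for each Rgs gene with a value above 0, with 1 point for each of 6 control (blue) and 6 cocktail (red) libraries and the genes ordered by their mean. Rgs4 lies above every other gene in each library, and Rgs1 lies mostly below the mean of 1 FPKM (dashed line) that the test required.

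The comparison across all loci was made with limma on log2(FPKM + 1), with the mouse as a block, over the 12032 loci with a mean of at least 1 FPKM. It called 180 loci at a Benjamini-Hochberg adjusted p under 0.05, 1.50% of those tested, of which 147 were higher in the cocktail (1.22%) and 33 lower. Among the 9 Rgs genes tested, 2 were called, both of them higher. All 9 had a positive estimate, from 0.01 to 0.65 on the log2 scale with a median of 0.12, beside a median of 0.01 and a positive share of 54.4% over all loci tested. Estimates of some cell-type markers were also all positive without a call, with a median of 0.12 for the 6 oligodendrocyte markers and of 0.08 for the 6 inhibitory neuron markers, and their part in the Rgs estimates was not tested. The estimates share 12 libraries, so the 9 signs are not independent. The genes were also chosen with earlier results of these data known, so their shares beside those of all loci are a description. Of the 7 other Rgs genes tested, 1 had a positive estimate, and their median was -0.01. All cocktail libraries lay above all control libraries for 2 of the 9 genes, as they did for 0.715% of all loci, and 3 of the 9 were higher in the cocktail hemisphere of all 6 mice, against 3.64% of all loci. The plot of values by mouse shows all 10 genes.

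**Figure D2:**
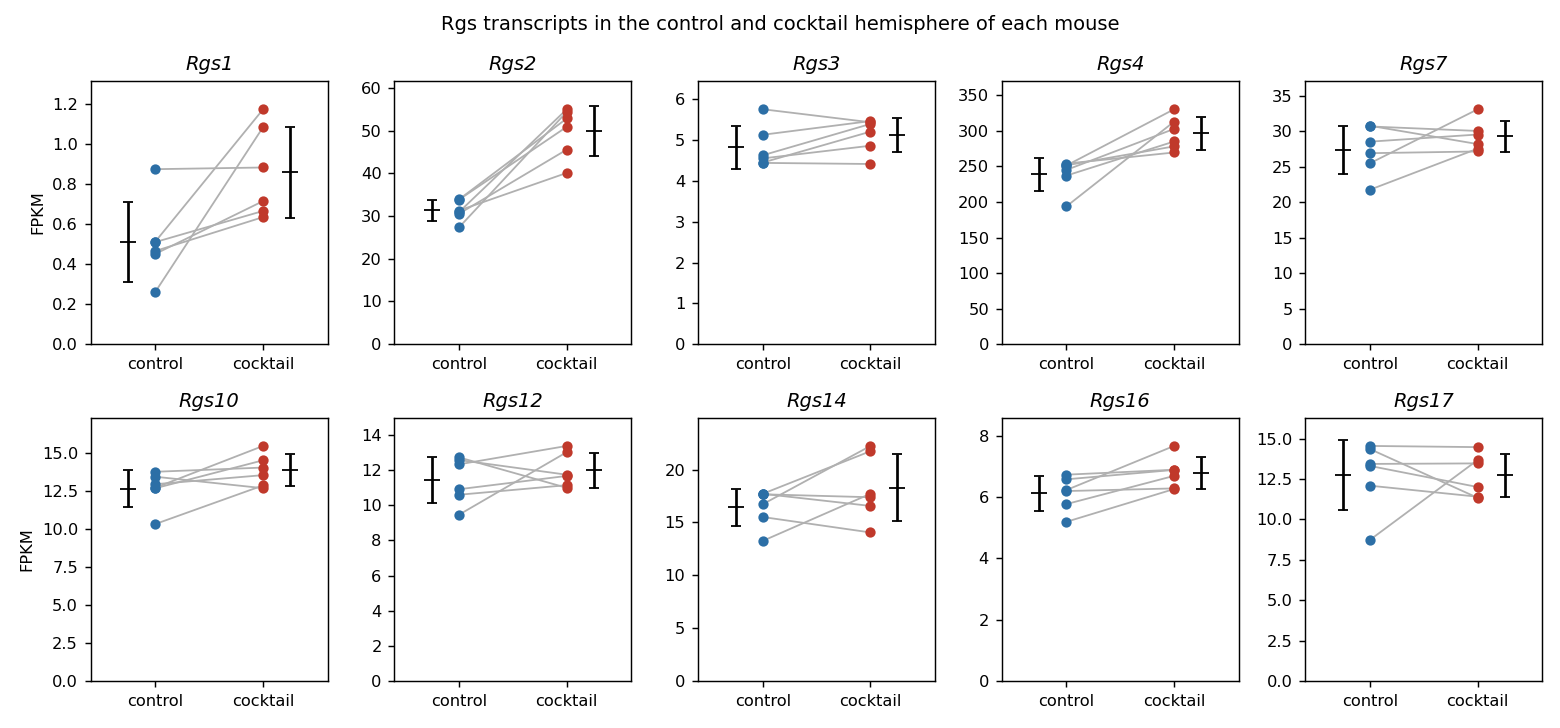
FPKM of each Rgs gene in the control (blue) and cocktail (red) hemisphere of 6 mice, with grey lines joining the hemispheres of a mouse and black bars for the mean ± SD. The groups separate for Rgs2 and Rgs4 and overlap for the other 8 genes.

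Rgs2 lies on the minus strand of chromosome 1 (mm10, 143999338 to 144004149). Its control values ran from 27.4 FPKM in mouse 1 over a median of 31.1 to 33.9 FPKM in mouse 4. In the cocktail they ran from 40.1 FPKM in mouse 6 over a median of 51.9 to 55.0 FPKM in mouse 5. The lowest cocktail value thus lay above the highest control value, with 1166 to 3299 reads behind each value. The cocktail hemisphere held 1.99 times the FPKM of its control partner in mouse 1, 1.50 times in mouse 2, 1.49 times in mouse 3, 1.56 times in mouse 4, 1.78 times in mouse 5 and 1.28 times in mouse 6. The rise was therefore present in every mouse, largest in mouse 1, whose control library was the low one, and smallest in mouse 6. On the log2(FPKM + 1) scale the difference was 0.65 ± 0.07 (SE, limma adjusted p = 0.000331), the 40th largest rise of all loci tested. With the signs of the 6 within-mouse differences flipped in all ways, the exact two-sided permutation p was 0.03125, the smallest that 6 mice allow. Rgs2 was called in all 15 refits, with estimates from 0.58 to 0.71, and without mouse 1 the estimate was 0.58.

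Rgs4, on the minus strand of chromosome 1 (169741477 to 169747642), ran in control from 194 FPKM in mouse 1 over a median of 248 to 254 FPKM in mouse 6. With the cocktail it ran from 270 FPKM in mouse 6 over a median of 294 to 330 FPKM in mouse 2. The groups did not overlap, and 8852 to 18453 reads lay behind each value. Within mice the ratio of cocktail to control FPKM was 1.62 in mouse 1, 1.32 in mouse 2, 1.11 in mouse 3, 1.24 in mouse 4, 1.20 in mouse 5 and 1.06 in mouse 6. As for Rgs2, mouse 1 showed the largest and mouse 6 the smallest difference. The log2 difference was 0.31 ± 0.07 (SE), with a limma adjusted p = 0.0494 and an exact sign-flip permutation p = 0.03125. Among 15 refits the call was kept in 4, and the adjusted p ranged from 0.0242 to 0.192 while the estimate stayed between 0.24 and 0.36. Without the block for mouse the adjusted p was 0.0519, with voom on the recovered reads 0.0501, with no filter on low values 0.192 and with quantile normalization 0.132, the latter with an estimate of 0.25. Without mouse 1 the estimate was 0.24 and the limma adjusted p = 0.0425, and the call was lost without mouse 2, 3, 4 or 5.

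**Figure D3:**
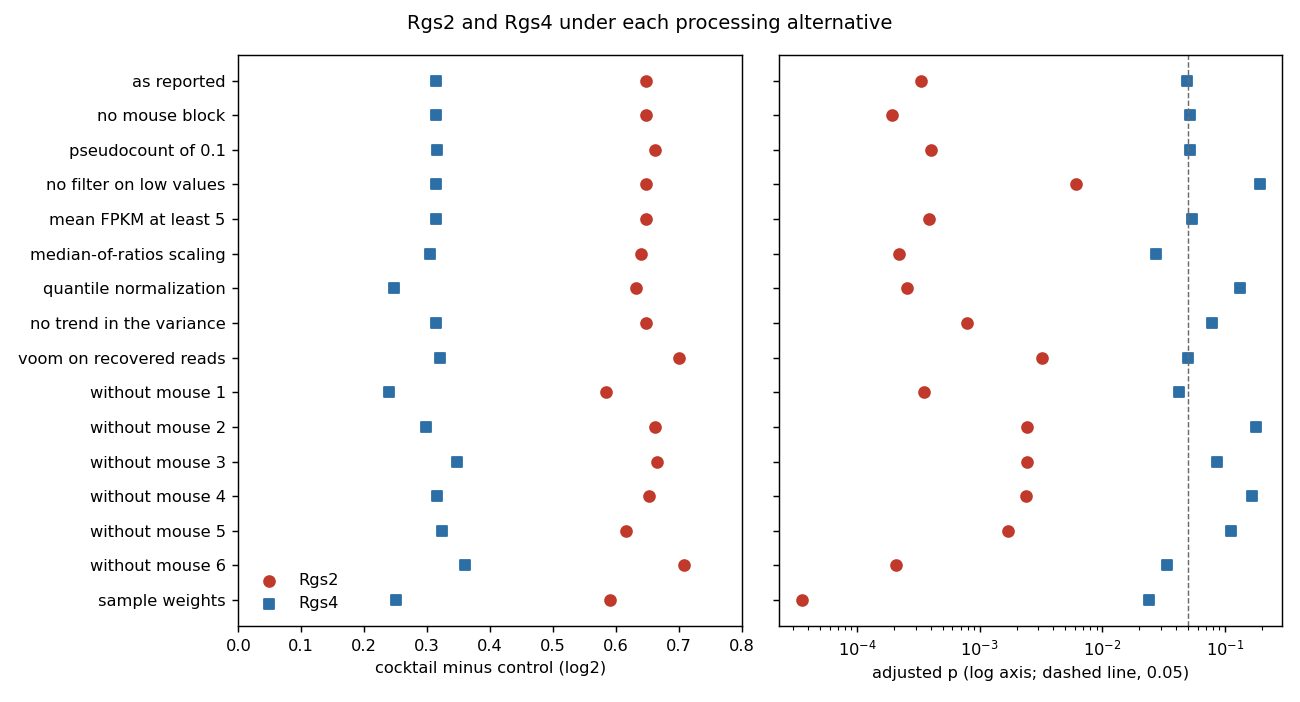
Log2 difference (left) and limma adjusted p on a log axis (right) of Rgs2 (red circles) and Rgs4 (blue squares) as reported and in 15 refits with another setting, with 1 mouse left out, or with libraries weighted. Rgs2 stays left of the dashed line at 0.05 in each row, whereas Rgs4 lies near it or to its right, although its estimate keeps to 0.24 to 0.36.

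Scaling the libraries by the median of ratios lowered the within-mouse difference of Rgs2 in mouse 1 from 0.97 to 0.86 and that of Rgs4 from 0.69 to 0.58 on the log2 scale. Mouse 1 remained the largest for Rgs4, and mouse 5 with 0.86 stood beside it for Rgs2. Fos differed least between the hemispheres of mouse 6, at 0.57 on the log2 scale, and Arc at 0.49, as did Rgs2 at 0.35 and Rgs4 at 0.09. The largest rise was in mouse 1 for Fos, by 2.47 times in FPKM, and in mouse 2 for Arc, by 2.05 times. All of these values come from the same pairs of libraries, and why mouse 6 differed was not tested.

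**Figure D4:**
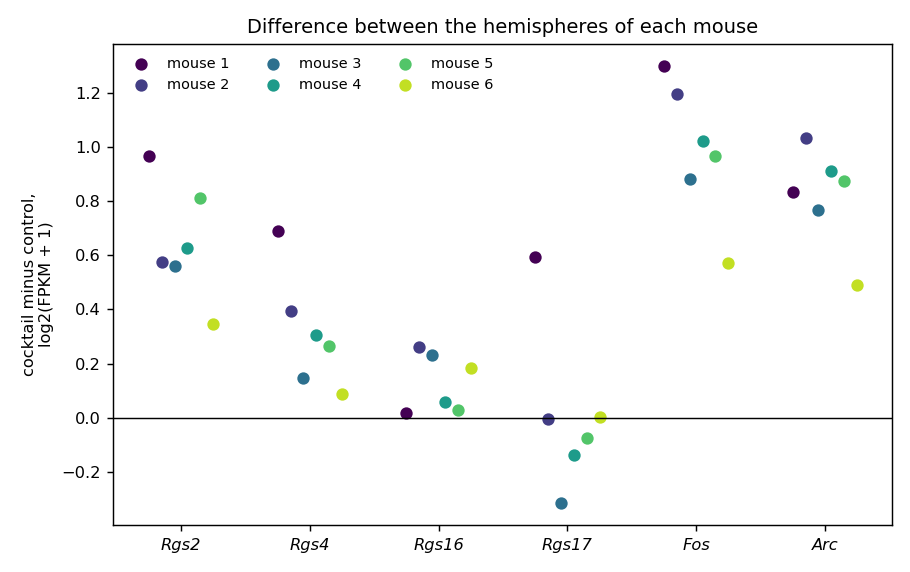
Difference between the cocktail and control hemisphere of each of 6 mice, on the log2(FPKM + 1) scale, for 4 Rgs genes and the immediate-early genes Fos and Arc. Mouse 6 (yellow) has the smallest value for Rgs2, Rgs4, Fos and Arc, and mouse 1 (dark purple) alone lies far above 0 for Rgs17.

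The other R4 genes were Rgs16, Rgs3 and Rgs1. Rgs16, a small regulator of Gi and Gq alpha subunits (chromosome 1, 153740353 to 153745468), measured 5.19 to 6.73 FPKM in control with a median of 6.21, and 6.26 to 7.66 FPKM in cocktail with a median of 6.78. The groups overlapped, but the cocktail hemisphere was higher in all 6 mice, by 1.01 to 1.23 times. Its log2 difference of 0.13 ± 0.06 had an adjusted p = 0.553 with limma (unadjusted, 0.0387), so it was not called. An antisense gene, Gm28513, overlaps its exons in GENCODE M21, and although the study's methods call the reads strand specific, the strand setting of the quantification is not given in the sources used here.

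Rgs3, whose products range from short R4 proteins to long forms (chromosome 4, 62559847 to 62703019), measured 4.44 to 5.76 FPKM in control and 4.42 to 5.47 FPKM in cocktail. It was higher in 4 of 6 mice, with a log2 difference of 0.08 ± 0.06 and a limma adjusted p = 0.830.

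Rgs1 (chromosome 1, 144244669 to 144249104) measured 0.26 to 0.88 FPKM in control with a median of 0.49, and 0.64 to 1.18 FPKM in cocktail with a median of 0.80. Only 7 to 28 reads lay behind each value, 79 in all 6 control libraries and 134 in the cocktail ones. The groups overlapped, and the cocktail value was the higher in all 6 mice, by 1.01 times in mouse 5 and by 4.14 times in mouse 3. Its mean of 0.69 FPKM was under the minimum for the test. With no filter on low values its log2(FPKM + 1) difference was 0.30, which understates ratios at this level, with a limma adjusted p = 0.329. The exact sign-flip permutation p was 0.03125, 1 of 10 such tests computed for these genes, of which those of Rgs1, Rgs2, Rgs4 and Rgs16 reached this smallest value. Markers of microglia, the resident immune cells of the brain, summed to 103 to 117 FPKM in control and 103 to 125 FPKM in cocktail libraries, with none of the 8 at 0 and none of them called. Their part in the Rgs1 values was not tested.

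The R7, R12 and RZ genes all overlapped between groups. Rgs7 (chromosome 1, 175059076 to 175492545) measured 21.8 to 30.7 FPKM in control and 27.1 to 33.1 FPKM in cocktail, higher in 4 of 6 mice, with a log2 difference of 0.10 ± 0.07 (limma adjusted p = 0.785) that was 0.05 without mouse 1 or without mouse 2. Rgs10, a short protein that is little more than an RGS domain and is made by microglia as well as neurons (chromosome 7, 128373625 to 128418172), measured 10.3 to 13.8 FPKM in control and 12.7 to 15.5 FPKM in cocktail. It was higher in 5 of 6 mice, with a log2 difference of 0.12 ± 0.06 (limma adjusted p = 0.632). Its lowest value, 10.3 FPKM, was that of control mouse 1.

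Rgs14, a scaffold that also binds Ras and is enriched in hippocampal area CA2 (chromosome 13, 55369732 to 55384687), varied most among the R12 genes in the cocktail, from 14.1 to 22.2 FPKM, against 13.3 to 17.7 FPKM in control. Cocktail was the higher in mice 3, 4 and 6, by 1.23 to 1.34 times, and the lower in the other 3, so the difference of 0.14 ± 0.08 had no common direction (limma adjusted p = 0.748), and it was 0.09 without mouse 4 or without mouse 6. CA2 markers summed to 197 to 256 FPKM in control and 212 to 275 FPKM in cocktail libraries, and their part in the Rgs14 values was not tested. Most of this sum came from Pcp4 and Ntsr2, with control means of 166 and 64.1 FPKM. Amigo2, Cacng5 and Sostdc1 had control means of only 2.35, 1.87 and 0.32 FPKM. Rgs12, a large protein with several domains beside the RGS domain (chromosome 5, 34949448 to 35033593), measured 9.47 to 12.7 FPKM in control and 11.0 to 13.4 FPKM in cocktail, with a log2 difference of 0.07 ± 0.07 (limma adjusted p = 0.887). The antisense gene Gm43791 overlaps its exons, and its estimate was -0.0044 without mouse 3 and 0.12 without mouse 6.

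Rgs17 of the RZ subfamily, which acts on Gi and Gz (chromosome 10, 5825664 to 5922400), was the only one of the 9 with a mean as high in control, 12.8 ± 2.15 FPKM, as in cocktail, 12.7 ± 1.32 FPKM. Control mouse 1 held 8.74 FPKM and the other control libraries 12.1 to 14.6 FPKM. The difference was 0.59 on the log2 scale in mouse 1 and between -0.32 and 0.0033 in the other 5 mice. The estimate of 0.01 ± 0.09 (limma adjusted p = 0.991) became -0.11 without mouse 1 and 0.07 without mouse 3.

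The intervals bound what these 7 genes can have done on average. The upper ends of the 95% intervals of the log2 difference lay between 0.20 for Rgs3 and 0.31 for Rgs14, all below the lower end for Rgs2, 0.49. The interval of Rgs16 ran from 0.01 to 0.25 and that of Rgs4 from 0.16 to 0.47. A missing call is thus no sign that a gene stayed the same.

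**Figure D5:**
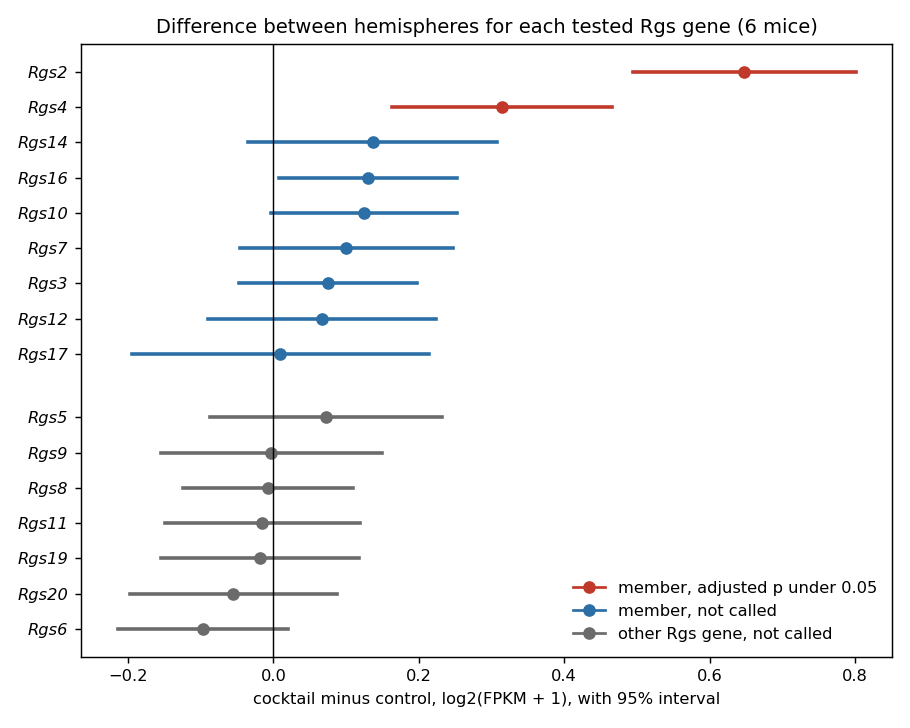
Difference between cocktail and control on the log2(FPKM + 1) scale, with its 95% interval, for the 9 tested genes described here (red where called, blue where not) and the other 7 Rgs genes tested (grey). The interval of Rgs2 lies to the right of every other tested Rgs gene.

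Whether R4 genes responded by different amounts was tested on within-mouse differences with an exact two-sided permutation of their signs. The 7 pairs were each made of Rgs2 or Rgs4 and another R4 gene. Rgs2 and Rgs4 were called from these same libraries. Pairs with a gene that was not called therefore lean toward a larger rise of Rgs2 or Rgs4. Neither the p-values nor their adjustment over the 7 pairs allows for this choice, so they are a description. Rgs2 rose by 0.33 ± 0.05 (SE) more than Rgs4 on the log2 scale, by more in all 6 mice (95% interval 0.20 to 0.47, exact permutation p = 0.03125). It exceeded Rgs3 by 0.57 ± 0.10 (0.31 to 0.84) and Rgs16 by 0.52 ± 0.12 (0.20 to 0.84), each in all 6 mice with the same p. Rgs4 exceeded Rgs3 by 0.24 ± 0.11 in all 6 mice (exact permutation p = 0.03125), but by as little as 0.0073 in 1 of them, with a 95% interval of the mean from -0.03 to 0.51, and by 0.15 without mouse 1. The p-values of these 4 pairs became 0.0547 when adjusted over the 7 pairs, so none passed 0.05 after correction. For Rgs4 against Rgs16 the difference was 0.18 (95% interval -0.11 to 0.48, exact permutation p = 0.156, adjusted 0.182), and 0.09 without mouse 1. Against Rgs1, with its few reads, the difference was 0.35 for Rgs2 (95% interval -0.06 to 0.76, exact permutation p = 0.0938, adjusted 0.131) and 0.01 for Rgs4 (-0.39 to 0.42, exact permutation p = 0.969). The log2(FPKM + 1) scale understates ratios at the level of Rgs1. The mean FPKM of Rgs1 rose 1.68 times and that of Rgs2 1.59 times. With 0.1 in place of 1 added to the FPKM, the difference was -0.01 for Rgs2 and -0.36 for Rgs4.

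Some Rgs genes are neighbours on chromosome 1 and differed in level. Of the 10 genes, 5 lie on chromosome 1, and there Rgs2 and Rgs1 share a stretch with other Rgs genes, Rgs16 lies beside Rgs8, and Rgs4 lies beside Rgs5, a marker of mural cells. Rgs5 measured 18.0 to 24.2 FPKM in control and 20.1 to 28.6 FPKM in cocktail, so its neighbour Rgs4 held 10.4 to 12.4 times its level in control libraries and 9.72 to 15.6 times in cocktail ones. Rgs5 was higher in 3 of 6 mice, with a log2 difference of 0.07 ± 0.07 SE from limma that was not called (adjusted p = 0.885). The difference of Rgs4 exceeded that of Rgs5 by 0.24 ± 0.09 in 5 of 6 mice (exact permutation p = 0.0625), a pair chosen after the values were seen. Rgs8 beside Rgs16 had a log2 difference of -0.01 (limma adjusted p = 0.990).

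Of the 11 other Rgs genes, 7 were tested with limma and none was called, none had an unadjusted p under 0.05, and none was called by voom. Their log2 differences ran from -0.10 for Rgs6 to 0.07 for Rgs5, with a median of -0.01, and 1 of the 7 was positive. Between them lay Rgs9, Rgs11, Rgs19 and Rgs20, the last at -0.05. Rgs13, Rgs18, Rgs21 and Rgs22 had means under 1 FPKM, and Rgs21 was at 0 in every library. All 21 Rgs genes together reached 385 to 474 FPKM in control libraries, and 495 to 577 FPKM after the cocktail, without overlap. The mean of this sum rose by 82.6 FPKM, of which Rgs4 contributed 69.9% and Rgs2 22.4%. Rgs2 took 6.47% to 7.19% of the sum in control and 8.10% to 10.6% in cocktail libraries, and Rgs4 held 7.08 to 8.23 times the FPKM of Rgs2 in control and 5.18 to 6.72 times in cocktail ones.

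The rest of the G protein pathway was counted from lists of genes. None of the genes tested was called among 11 partners of RGS proteins and other regulators of G alpha, 11 G protein alpha subunits, 12 beta and gamma subunits, 7 receptor kinases and arrestins, and 14 effectors of G proteins. In these 5 lists limma gave 0 genes with an unadjusted p under 0.05, and voom called 0. Their median log2 differences were 0.0014, 0.04, -0.02, -0.06 and -0.03 in that order. Of 21 tested receptors coupled to G proteins for ligands of the cocktail, 6 had an unadjusted p under 0.05, against 8.05% of all loci, and 1 was called. The 5 that were not called, named after their values were seen, were Htr7, Htr5a, Adra1b, Adra1d and Chrm1, all with negative log2 differences, from -0.18 for Htr7 to -0.11 for Chrm1 (limma adjusted p from 0.384 to 0.612). The call was that of Adrb1, the beta-1 adrenergic receptor, which binds norepinephrine. It measured 26.1 to 37.5 FPKM in control and 37.9 to 47.1 FPKM in cocktail libraries, without overlap, and was higher in all 6 mice, with a log2 difference of 0.40 ± 0.05 (SE, limma adjusted p = 0.00213). Without the block for mouse, Adrb1 was not called. The receptors had a median log2 difference of -0.04, and 7 of the 21 were positive.

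Some loci followed the called Rgs genes closely over the 12 libraries. By Pearson's r of log2(FPKM + 1), the 3 most like Rgs2 among all loci tested were Fbxo33 (r = 0.975), Tiparp (r = 0.967) and the immediate-early gene Egr2 (r = 0.967), all 3 called higher, by 0.55, 0.80 and 0.74 on the log2 scale. Those most like Rgs4 were Plagl1 (r = 0.944), Spry2 (r = 0.942) and Sox11 (r = 0.932), with log2 differences of 0.20, 0.56 and 0.27. Of these, Spry2 was called (limma adjusted p = 0.00108), and Plagl1 (limma adjusted p = 0.356) and Sox11 (limma adjusted p = 0.231) were not. The 12 points share the 2 conditions and the low values of control mouse 1, so these r values are a description of likeness.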

How the data were processed

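Auditory cortex RNA from 6 control and 6 cocktail hemispheres of 6 mice was sequenced by the authors. Per the submitters' processing notes and the study's methods, BWA 0.6.1 removed ribosomal reads, TopHat 1.4.1 placed the rest on mm10 at 1 site each, and Cufflinks 1.3.0 estimated FPKM with bias correction and with protein coding RefSeq genes as denominator. These FPKM values and their confidence intervals were deposited per library. A further deposited table, from HTSeq 0.6.1p1 and DESeq2 1.6.3, holds the authors' mean normalized count per gene, a signal used only to check recovered reads, and the authors' fold changes, errors, statistics, p-values and group means, which were not used.

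Reads were recovered from the intervals, whose upper end lies 2 Poisson standard deviations above the FPKM value. Of 36413 values under 20 reads, 82.8% lay within 0.05 of a whole number, and 96.3% of 10702 genes lay within 10% of the authors' mean count. The reads cover counting error only.

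Loci with a mean of at least 1 FPKM entered a linear model of log2(FPKM + 1) (limma 3.58.1, R 4.3.3) that had treatment and mouse as terms, a variance trend and Benjamini-Hochberg adjustment over 12032 loci at 0.05. Fold differences on this scale understate low genes. The same fit was also run on simulated data for these 12032 loci with known changes, and its outcome there is not reported here. For single values, the signs of the 6 within-mouse differences were permuted exactly in a two-sided test (scipy 1.17.1, Python 3.11.15), whose smallest p is 0.03125. Mouse numbers in the labels pair the hemispheres of an animal, and deviations from the group mean correlated at 0.216 to 0.406 within the 6 pairs, against a median of -0.0714 and a highest value of 0.445 between different mice. Within each group, no library was a copy of another (chi-square per gene of at least 7.81). Control libraries were not compared with cocktail ones in this way. Alternatives were the fit without block, other pseudocount, filters, scalings and variance model, voom on recovered reads, each mouse left out, and sample weights, the last chosen after seeing the data. The text names the 10 genes, genes called in each list (up to 4 by smallest p), all tested Rgs genes, and the 3 loci most alike to each called gene. Genes and lists were chosen with earlier results of these data known. List genes were matched by symbol, and 4 symbols were not matched. Gene coordinates follow the files, with 1 as the first base. Promoter sequences are from RefSeq. Figures were drawn with matplotlib 3.10.9.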

Additional observations from a re-analysis of the deposited data

Results flagged for a closer look

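In the 30 groups of 6 values checked (control FPKM, cocktail FPKM and within-mouse differences of the 10 genes), 3 held a value far from the others by Dixon's ratio, where chance gives about 1.5. All 3 involve mouse 1, whose control library had a median log2 deviation of -0.142 from the other control libraries, though it was not low at every locus. The part of this shift in the 3 values was not tested. Rgs4 measured 194 FPKM in control mouse 1 against 237 to 254 FPKM in the other control libraries. Rgs10 measured 10.3 FPKM there against 12.7 to 13.8 FPKM. The within-mouse difference of Rgs17 was 0.59 on the log2 scale in mouse 1, while the other 5 mice lay between -0.32 and 0.0033, and it was 0.49 after scaling by the median of ratios.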

How the results depend on the processing

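Rgs2 was called under every alternative, and the 7 other tested genes that were not called stayed so in every refit. The number of loci called, 180, became 88 without the replicate block and 118 with voom, and lay between 104 and 181 when 1 mouse was left out (104 without mouse 4). The number of Rgs genes called, 2, became 1 (Rgs2) without the replicate block, with a pseudocount of 0.1, without a filter, with a mean of at least 5 FPKM, with quantile normalization, without a variance trend and with voom, and lay between 1 and 2 with 1 mouse left out. Rgs3 was not tested at a mean of at least 5 FPKM. Voom moved the estimate by over 1.5 times for Rgs3 (0.03), Rgs7 (0.06), Rgs12 (0.04), Rgs14 (0.07) and Rgs17 (0.05), and sample weights did for Rgs7 (0.05) and Rgs14 (0.21). The block for mouse otherwise changed a call among the lists only for Adrb1. The estimate reversed for Rgs12 without mouse 3 (-0.0044) and for Rgs17 with quantile normalization (-0.0022), without mouse 1 (-0.107) and with sample weights (-0.0905), none of them called; with 1 mouse left out Rgs12 ranged up to 0.119 and Rgs17 up to 0.0748. The difference between Rgs2 and Rgs1 became -0.0124 with a pseudocount of 0.1. That between Rgs4 and Rgs1 became -0.36 with a pseudocount of 0.1 and -0.0229 with quantile normalization, and ranged from -0.0888 to 0.134 with 1 mouse left out. Rgs4 against Rgs3 lost its exact permutation p under 0.05 with a pseudocount of 0.1 (0.23, p = 0.0625) and with quantile normalization (0.18, p = 0.156). With 5 mice the smallest exact permutation p is 0.0625, so those values have no test. The median over all loci stayed within 0.01 of 0 under each scaling. The causes were not tested.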
